A study of Mus musculus with 54 samples.

Results

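The clustered protocadherin locus of the mouse was examined as the 250 bp windows of an interval of chromosome 18 (mm10) that holds the Pcdha cluster (36930285 to 37188897), the Pcdhb cluster (37264998 to 37521419), the Pcdhg cluster (37661775 to 37841873) and short flanks. The bounds of the interval were set by position alone, but the locus was chosen with earlier results of these data known. The interval held 3800 windows of the 9850971 autosomal windows in the table. Of these, 333 had a deposited CpG density score of 10 or more and are called CpG-dense, and the other 3467 are treated apart. After a filter on low counts, 654 windows of the locus could be tested, 269 of them CpG-dense. The RefSeq annotation of the mm10 assembly places 58 protocadherin genes in the interval, 14 in the Pcdha, 22 in the Pcdhb and 22 in the Pcdhg cluster.

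Clustered protocadherins are cell surface adhesion proteins of the cadherin family. In the Pcdha and Pcdhg clusters each variable exon has its own promoter and is spliced to constant exons shared by the cluster, while each Pcdhb gene is a single coding exon. Neurons use a few of these promoters at a time, and DNA methylation of the promoter and exon, together with the DNA-binding factor CTCF and cohesin, is known to take part in that choice. The last members of the Pcdha and Pcdhg clusters, Pcdhac1, Pcdhac2, Pcdhgc3, Pcdhgc4 and Pcdhgc5, are the C-type isoforms, which are regulated apart from the others. In tissues other than the nervous system most of these genes are little used, and the clusters are known as a region of long-range DNA methylation change in human tumours.

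DNA methylation was read by MeDIP-seq, in which an antibody against 5-methylcytosine captures methylated DNA before sequencing. The tissues were intestinal adenomas and normal intestinal mucosa of mice carrying the Min allele of Apc, which gives rise to intestinal adenomas, and mucosa of Apc wild type mice, all 15 to 19 weeks old. The genetic backgrounds were C57BL/6, called B6; PWD/Ph, called PWD; their F1, B6xPWD; C5, which is B6 with a PWD chromosome 5; and C5F1 and C1_5F1, the F1 of B6 with consomic lines that carry PWD chromosome 5, or chromosomes 1 and 5. C5, C5F1 and C1_5F1 thus have B6 chromosome 18 per the labels, B6xPWD has 1 copy from each strain, and PWD has none of B6. The 46 libraries were 5 adenoma, 3 Apc Min normal and 4 wild type libraries of B6, 3 of each tissue in B6xPWD, C5 and C5F1, 2 adenoma and 2 Apc Min normal libraries of C1_5F1, and 3 wild type libraries of PWD. Mucosa and adenomas are mixtures of cells, and a change in the makeup of cells cannot be told apart from a change within cells. Nothing in the labels says which libraries came from 1 animal, so p-values measure the spread between these libraries.

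Total counts ran from 8358806 to 27842607 per library. The share of a library's counts in CpG-dense autosomal windows varied with the first number in the sample label. The mean was 4.87% in the 11 libraries numbered 16, and between 5.81% and 7.21% for the other numbers. Within number 16 the share ran from 4.06% in C5 normal 16_2 to 5.96% in B6xPWD adenoma 16_6. What the first label number stands for is not stated. It is given beside the results below because the protocadherin 5′ regions are rich in CpG-dense windows. Library pairs within a group differed by more than sampling noise. Over bins of 100 kb the chi-square per degree of freedom ran from 1.08 to 28.9 in the 51 pairs. The highest value was that of B6 wild type libraries 10_1 and 16_8.

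In wild type B6 mucosa the CpG-dense windows of the locus were captured more than CpG-dense windows elsewhere. Capture is given as CPM, the count scaled to the library's autosomal count and to a between-library scaling factor (TMM). Their mean was 0.78 CPM per window against 0.379 over all 160667 dense autosomal windows, and the medians were 0.682 and 0.0597. The gap widened with density. Among windows with a score from 10 to 15 the median was 0.562 CPM at 173 locus windows and 0.301 over the autosomes. From 15 to 20 it was 0.763 at 112 locus windows and 0.0236 over the autosomes, and from 20 to 30 it was 1.13 at 44 locus windows and 0.0111. Among the CpG-dense windows of the autosomes capture thus fell as density rose, whereas among those of the locus it rose. The other windows of the locus were close to the autosomal level, with a mean of 0.0924 CPM against 0.0995. The input library, unenriched DNA from a B6xPWD adenoma, held 1 count per dense window and 0.692 per other window of the locus.

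Of the 333 dense windows, 277 (83.2%) lay in the 5′ regions of the protocadherin genes. Such a region was taken as 3000 bp, from 500 bp before to 2500 bp after the gene start, about the length of a variable exon. All 58 regions passed the filter on low counts. The variable exons resemble each other closely, and neither labels nor headers say how reads that fit several places were treated, so levels of single members are uncertain to that extent. In the Pcdha genes mean capture per window in B6 wild type mucosa was 0.18 CPM in the 500 bp before the start, rose to 0.438 in the 500 bp after it, and peaked at 1.29 between 1500 and 2000 bp, inside the exon. It was 0.0804 CPM from 2500 bp on. The Pcdhb genes peaked in the same bin at 1.04 CPM and the Pcdhgb genes at 1.68 CPM. The Pcdhga genes had a flatter course, highest at 0.762 CPM between 500 and 1000 bp. The C-type genes had the highest CpG density of all types at the start, a mean score of 16.7 over the 500 bp after it, but only 0.311 CPM there and 0.0801 CPM in the 500 bp before it.

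**Figure D1:**
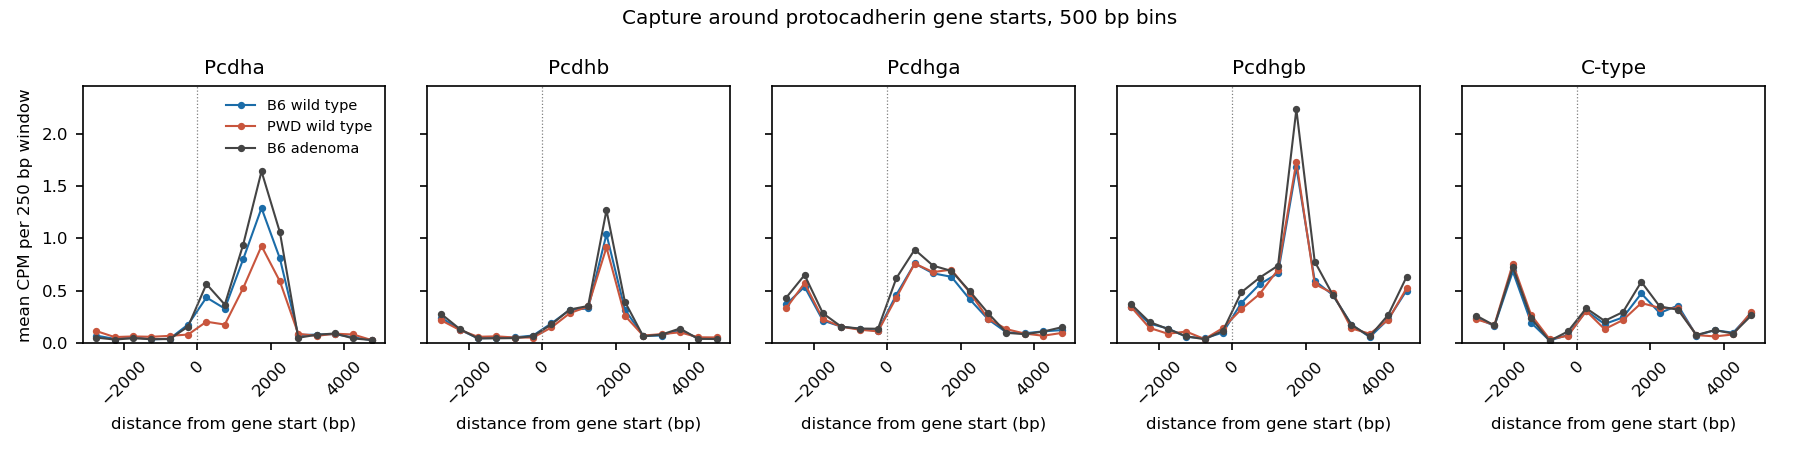
Mean MeDIP capture (CPM per 250 bp window, vertical axis) by distance from the gene start in base pairs (horizontal axis, 500 bp bins) for the 5 types of clustered protocadherin, in B6 wild type (blue), PWD wild type (red) and B6 adenoma (dark grey) libraries; lines join group means. Pcdha, Pcdhb and Pcdhgb genes peak between 1500 and 2000 bp inside the gene, and in the Pcdha panel the PWD line lies below the B6 line from 500 bp before to 2500 bp after the start.

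Levels of the 58 regions, which are of equal length, ranged from 1.87 ± 0.462 CPM (SD, n = 4) at Pcdhac2 to 12.8 ± 2.76 CPM at Pcdhga12 in B6 wild type mucosa. Pcdhga12 was followed by Pcdhgb5 at 11 ± 1.47 CPM and Pcdhgb7 at 9.22 ± 1.91 CPM. The 12 variable Pcdha regions had a median of 7.74 CPM and a narrow range, from 6.1 CPM at Pcdha10 to 9.21 CPM at Pcdha6. The 22 Pcdhb regions had a median of 4.72 CPM, from 2.44 at Pcdhb9 to 7.91 at Pcdhb4. The 12 Pcdhga regions had a median of 5.78 CPM, with Pcdhga6 the lowest at 2.58 CPM, and the 7 Pcdhgb regions a median of 7.97 CPM. In the order of means the libraries of every pair of neighbours overlapped, in 57 of 57 pairs, so the order is meaningful only over wide steps.

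Pcdhac1, Pcdhac2 and Pcdhgc4 lay below, and Pcdhgc5 above, all variable Pcdha, Pcdhb, Pcdhga and Pcdhgb members within 1 unit of their CpG density, and Pcdhgc3 had no such neighbour. Pcdhgc3, the member with the highest mean density (17.6), had 2.12 ± 0.513 CPM, and Pcdhac2, with a mean density of 14, had the lowest level of all. Pcdhac1 had 2.84 ± 0.563 CPM, Pcdhgc4 3.61 ± 0.337 CPM and Pcdhgc5, with a density of 6.7, 5.69 ± 0.727 CPM. Across the 53 other members, CpG density and level rose together (Pearson r = 0.824, Spearman rho = 0.876). Over all 58 the correlation was 0.545 (rho = 0.651), and over the 22408 other 5′ regions of the autosomes it was -0.066. These correlations are across genes, which share their libraries and are not independent replicates. Of the 1855 other regions within 1 unit of the density of Pcdhga12, 99.9% lay below it, and of the 1211 such regions for Pcdhac2, 83.4% did. The lowest such share was 52.6%, at Pcdhb9, and that of Pcdhga6 was 70.3%. The share was over 90% at 12 of 12 Pcdha, 7 of 7 Pcdhgb and 10 of 12 Pcdhga regions. It was over 90% at only 12 of 22 Pcdhb and 3 of 5 C-type regions.

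**Figure D2:**
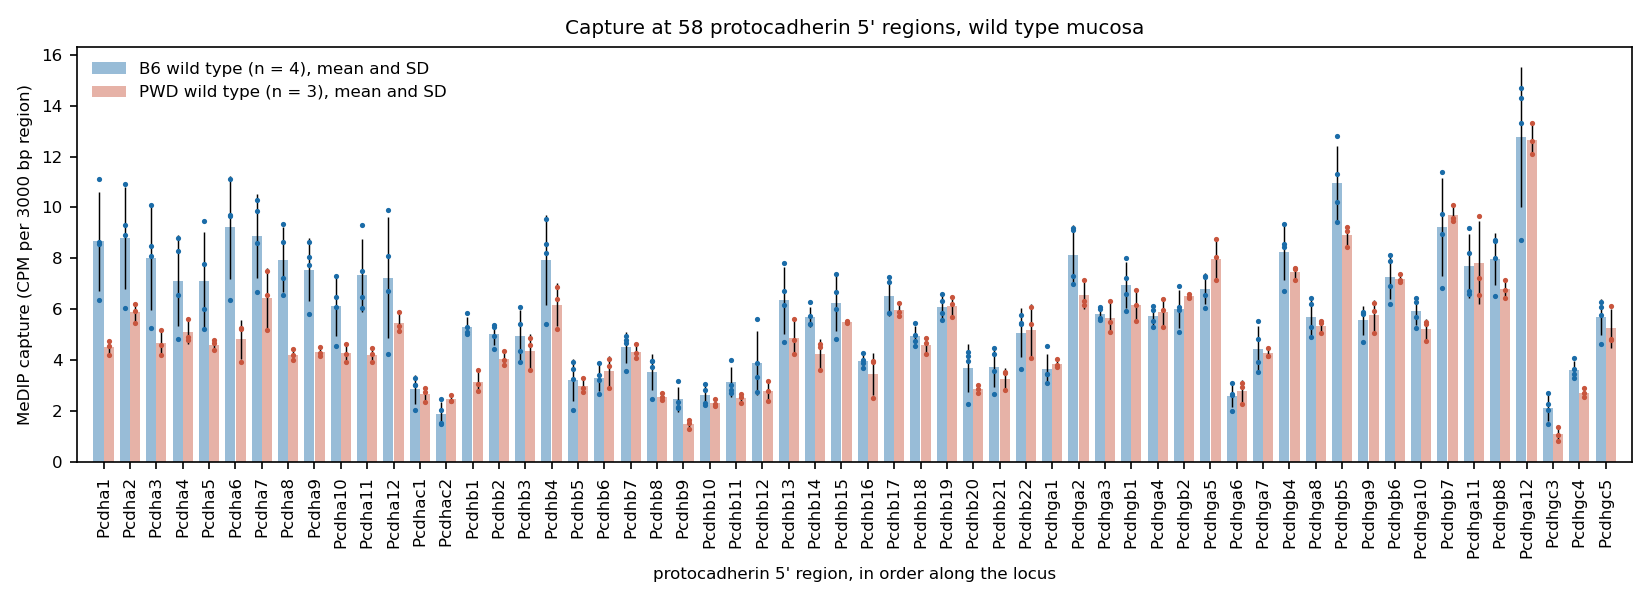
Capture (CPM per 3000 bp region, vertical axis) at the 58 protocadherin 5′ regions in their order along the locus, in wild type mucosa of B6 (blue, n = 4) and PWD (red, n = 3); bars are means, error bars SD and points libraries. Pcdhga12 is the highest region, Pcdhac2 the lowest in B6, and the Pcdha regions at the left are lower in PWD.

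The comparison of adenomas with Apc Min normal mucosa asks whether the locus gains or loses methylation in the tumour. No protocadherin region was called. Averaged over 5 strains, 55 of the 58 protocadherin 5′ regions had a higher fitted level in adenomas, with a median log2 difference of 0.14 against 0.00 over all 22466 regions tested. None passed an adjusted p of 0.05 (edgeR quasi-likelihood test, Benjamini-Hochberg over all regions), where 0.0534% of all regions were called. At an unadjusted p under 0.05 there were 20 of 58 (34.5%), against 4.91% of all regions. That count was 13 without C1_5F1 adenoma 5_4, and 8 of 54 measured members (43 above 0) with regions from 1000 bp before to 500 bp after the start. The members are neighbours measured in the same libraries, so these are not 58 separate observations.

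All 12 variable Pcdha regions lay above 0, with a median log2 difference of 0.18. The 7 Pcdhgb regions all lay above 0 with a median of 0.19, as did 11 of 12 Pcdhga (median 0.15) and 21 of 22 Pcdhb regions (median 0.10). Among the C-type regions, 4 of 5 lay above 0, with a median of 0.07, and none had an unadjusted p under 0.05. Pcdhac2 had -0.11 ± 0.11 (log2 difference ± SE), Pcdhac1 0.17 ± 0.11, Pcdhgc3 0.11 ± 0.13, Pcdhgc4 0.07 ± 0.084 and Pcdhgc5 0.01 ± 0.087.

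The member with the lowest p was Pcdhga11, a variable member of the Pcdhg cluster whose region lies at chromosome 18, 37755251 to 37758250. In B6 its 5 adenoma libraries had 9.56, 9.63, 9.98, 11 and 11.5 CPM and the 3 normal libraries 6.88, 7.24 and 7.89 CPM. The groups did not overlap in B6. In C5F1 the adenomas had 7.56, 8.93 and 8.98 CPM and the normal libraries 6.71, 6.81 and 7.24 CPM, again apart. In B6xPWD the adenomas spread from 5.15 through 8.52 to 11 CPM around normal values of 5.53, 6.15 and 6.29 CPM, and C1_5F1 overlapped as well. In C5 the adenomas, with 6.93, 7.25 and 7.75 CPM, lay just above the normal libraries, with 5.75, 6.84 and 6.85 CPM. The average log2 difference was 0.29 ± 0.084 with an adjusted p of 0.43 by edgeR.

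Pcdha8 followed at 0.24 ± 0.072 (adjusted p = 0.438), then Pcdhga8 at 0.26 ± 0.082 (adjusted p = 0.595). The lowest adjusted p of the Pcdhb cluster was 0.81, at Pcdhb14, with 0.19 ± 0.071. Pcdhb21 had 0.28 ± 0.11 and Pcdha12 0.26 ± 0.096. Below 0 were Pcdhga6 at -0.05 ± 0.11, Pcdhb1 at -0.00 ± 0.085 and Pcdhac2. With B6 alone Pcdhga10 had the lowest adjusted p, 0.102. Its 5 B6 adenomas had 7.21 to 7.96 CPM and the 3 normal libraries 4.85, 5.16 and 5.41 CPM, a log2 difference of 0.59 ± 0.14.

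By strain, 54 of 58 members lay above 0 in B6, 46 in B6xPWD, 43 in C5, 49 in C5F1 and 44 in C1_5F1. Over all regions the share above 0 was 49.5% to 51.2%. No member was called in any strain in the main fit. Of all 22466 regions, 1 was called higher and 5 lower in B6, and 0 in the other strains. With the dense-share covariate described below, B6 alone called Pcdhga10 (0.60, adjusted p = 0.00137) and Pcdhga11 (0.47, adjusted p = 0.0386, edgeR), against 0.245% of all regions. All 5 C-type regions lay below 0 in C1_5F1 (median log2 difference -0.39), where the groups hold 2 libraries each. The test of a difference of the adenoma effect between the 5 strains called 0 of 58 members and 0 of 22466 regions by edgeR. At an unadjusted edgeR p under 0.05 it gave 633 regions, of which 1 was a member, Pcdhga10. With the share of dense counts as a covariate, a fit added after the data were seen, Pcdhga11 (0.28 ± 0.066, adjusted p = 0.0335) and Pcdha8 (0.23 ± 0.058, adjusted p = 0.0483) were called by edgeR, which is 2 of 58 members against 0.223% of all regions.

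At single windows, 0 of the 654 tested in the locus were called, against 0.000939% of all 1172069 autosomal windows. An unadjusted p under 0.05 was found at 45 of them (6.88% against 4.23%, edgeR). These were 29 of 269 dense windows (10.8%, against 4.1% of all dense windows) and 16 of 385 others (4.16%, against 4.24%). The dense windows of the locus had a median log2 difference of 0.17 against 0.04 over all dense windows. The median was 0.17 in the Pcdha, 0.15 in the Pcdhb and 0.17 in the Pcdhg cluster. The lowest p among windows that were higher in adenomas belonged to the window at 37738001 to 37738250, 1190 bp inside Pcdhga9 (log2 difference 0.78 ± 0.23), and among those that were lower to the window at 37759001 to 37759250, upstream of Pcdhgb8 (-0.70 ± 0.27). The adjusted p was 0.92 for the former and 1 for the latter by edgeR.

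The counts of all dense windows of the locus were then summed in each library. These sums are CPM of the library's autosomal count, without TMM scaling. In B6 the adenomas had 308.5 to 364 CPM and the normal libraries 230.9, 246.9 and 301.3. The groups did not overlap there. The means were 329.8 ± 20.6 (SD, n = 5) and 259.7 ± 36.9 (n = 3). In B6xPWD the adenomas had 250.3, 253.8 and 258.2 and the normal libraries 203.5, 231.1 and 246, also apart. The adenoma and normal means were 244.3 and 222.1 in C5F1, 229.7 and 224.4 in C5, and 293 and 255 in C1_5F1, and the groups overlapped in each of these strains.

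Averaged over strains the difference was 32.6 CPM (exact permutation test within strains, two-sided, p = 0.0322), and it was positive in 5 of 5 strains. Over the 10 tests made with this denominator the adjusted p was 0.161, so the difference did not pass after adjustment. By cluster, the Pcdhg sum differed by 14 (adenoma minus normal; exact permutation p = 0.00562, adjusted p = 0.0562), positive in 5 of 5 strains. That adjusted p is 0.0281 if the 10 tests with the other denominator, below, are counted in the same family, so whether the Pcdhg sum passes depends on how the family is drawn. The Pcdha sum differed by 11.5 (exact permutation p = 0.0525, adjusted p = 0.175) and the Pcdhb sum by 5.65 (exact permutation p = 0.175, adjusted p = 0.292). The other windows of the locus differed by 8.2 (exact permutation p = 0.0966, adjusted p = 0.241).

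Scaled to the counts in all dense autosomal windows in place of all counts (dense CPM below), the comparison gave less overlap. The 5 B6 adenomas had 4577 to 5033 dense CPM and the normal libraries 3857, 4080 and 4421. Adenoma and normal libraries did not overlap in B6, B6xPWD, C5 and C5F1, and overlapped in C1_5F1. In all, 15 of 16 adenomas lay above every normal library of their strain. The average difference was 322 dense CPM (exact permutation p = 1.12e-05, adjusted p = 0.000112 over the 10 tests with this denominator). It was 111 for Pcdha (exact permutation p = 0.00117, adjusted p = 0.00583), 151 for Pcdhg (exact permutation p = 0.00198, adjusted p = 0.00661) and 46.6 for Pcdhb (exact permutation p = 0.112, adjusted p = 0.143).

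The share of dense counts itself was 6.9% in B6 adenomas and 6.29% in B6 normal mucosa, and its average difference between adenoma and normal libraries was 0.289 percentage points (exact permutation p = 0.358). Within strain and first label number, the adenoma mean was above the normal mean in 10 of 10 pairs of groups, from 28 libraries, with an average difference of 29.5 CPM (exact permutation p = 0.00196). Blocked in this way, which was added after the data were seen, the difference was 10.2 CPM for Pcdha (exact permutation p = 0.0044), 13.3 for Pcdhg (exact permutation p = 0.00103), 4.55 for Pcdhb (exact permutation p = 0.0839) and 9.09 for the other windows (exact permutation p = 0.00228). The unadjusted p of Pcdha and of the other windows is thus under 0.05 within label numbers and above it without them. Leaving out any of 8 libraries in turn took the unadjusted p of the average difference in CPM past 0.05, to at most 0.0906 without C5 normal 16_2. The others were B6 normal 9_2, C5F1 adenomas 12_6 and 12_9, C5F1 normal 16_10, C5 adenoma 12_3, C1_5F1 adenoma 5_4 and C1_5F1 normal 5_3.

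**Figure D3:**
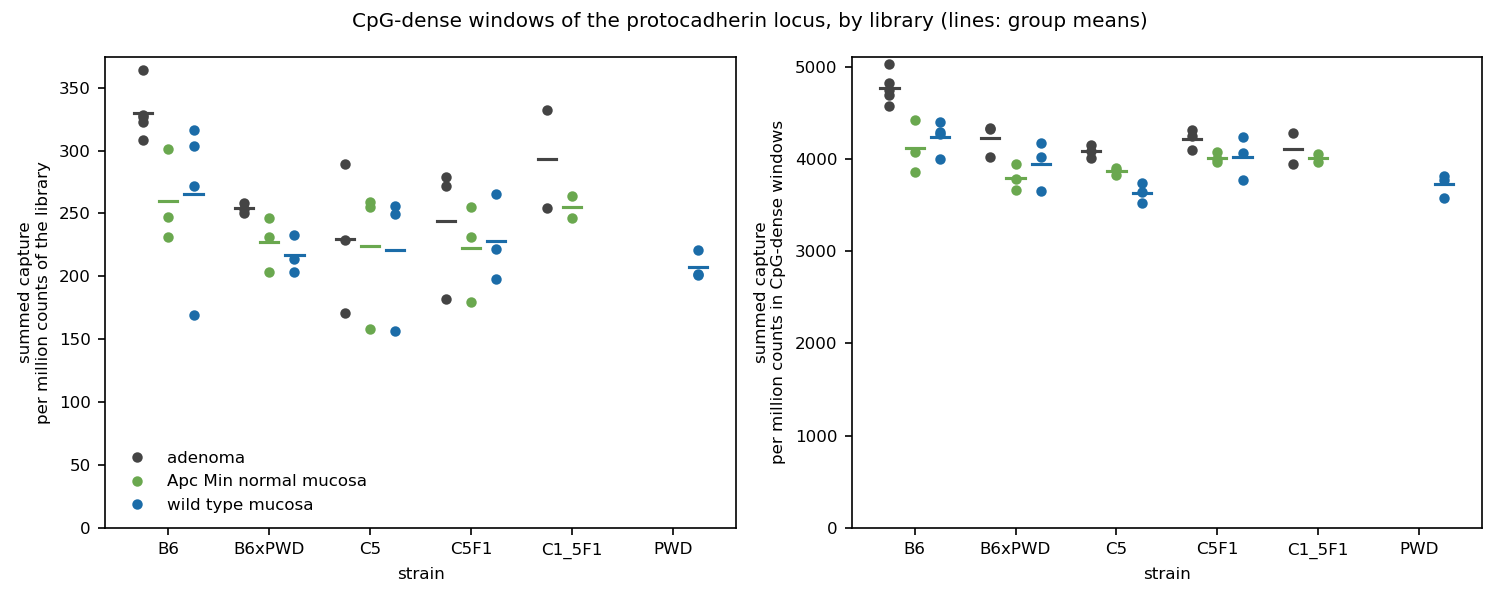
Summed capture of the 333 CpG-dense windows of the locus by library (points) and group mean (lines), in CPM of all autosomal counts of the library (left) and in CPM of the counts in CpG-dense autosomal windows (right), for adenoma (dark grey), Apc Min normal (green) and wild type (blue) libraries of each strain. B6 adenomas (308.5 to 364 at the left) lie above B6 normal mucosa, and on the right 4 of 5 strains show no overlap between adenoma and normal libraries.

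Apc Min normal mucosa was set against wild type mucosa in B6, B6xPWD, C5 and C5F1. No window of the locus and no member was called, where 0% of all windows and 0 of 22466 regions were called. At an unadjusted p under 0.05 there were 15 of 654 windows (2.29%) by edgeR, against 2.88% of all windows. Among the members there were 0 of 58, against 2.5% of all regions. The median log2 difference over the members was -0.02.

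PWD was compared with B6 in wild type mucosa to see how far the strain's own genome sets methylation at the locus. The variable Pcdha regions were lower in PWD: all 12 lay below 0 with a median log2 difference of -0.71, and 9 of 12 were called. Over the whole locus 13 of 58 members were called lower, against 5.88% of all regions, and 0 were called higher, against 4.59%. In the Pcdhb cluster 3 of 22 were called lower, in the variable Pcdhg genes 0 of 19, and among the C-type 1 of 5. The medians were -0.195 for Pcdhb, 0.00 for Pcdhga and -0.15 for Pcdhgb. Over all regions the median was 0.01. Reads of all strains were aligned to mm10, which is built from B6, and PWD input was not analysed here. In this and all PWD comparisons below, a difference in methylation thus cannot be told apart from one in sequence or mapping.

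The lowest p belonged to Pcdha8 (36992001 to 36995000), which had 6.56, 7.22, 8.62 and 9.34 CPM in the B6 libraries and 4.01, 4.18 and 4.44 CPM in PWD. The strains did not overlap. The 3 B6xPWD wild type libraries, at 5.4, 5.47 and 6.27 CPM, lay between them. The log2 difference between PWD and B6 was -0.92 ± 0.15 (adjusted p = 5.72e-06, edgeR). Pcdha1, at the start of the cluster (36929751 to 36932750), had 6.36, 8.55, 8.62 and 11.1 CPM in B6 and 4.2, 4.54 and 4.73 CPM in PWD. B6xPWD had 5.49, 7.02 and 7.37 CPM, overlapping B6 only. Its log2 difference was -0.95 ± 0.17 (adjusted p = 3.64e-05, edgeR).

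In the Pcdhb cluster Pcdhb1 had 5.02, 5.1, 5.29 and 5.85 CPM in B6 and 2.76, 3.06 and 3.6 CPM in PWD (-0.76 ± 0.16, adjusted p = 0.00078, edgeR). The C5 libraries, with B6 chromosome 18, had 2.55, 3.52 and 3.86 CPM at this gene and overlapped PWD, not B6. Pcdhb9 had 2.12 to 3.16 CPM in B6 and 1.3, 1.51 and 1.62 CPM in PWD (-0.725 ± 0.19, adjusted p = 0.00736, edgeR). The other called member was Pcdhb14, named here after its value was seen, at -0.42 (adjusted p = 0.0323, edgeR). The members above 0 with the lowest p were Pcdhb6 (0.11 ± 0.19) and Pcdhb22 (0.03 ± 0.19) in this cluster and Pcdhga5 (0.24 ± 0.16) and Pcdhgb2 (0.11 ± 0.14) in Pcdhg. None of the 4 was called.

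Pcdhgc3 was the C-type member called. It had 1.46, 2.03, 2.28 and 2.69 CPM in B6 and 0.795, 1.03 and 1.38 CPM in PWD, so the closest libraries were 1.38 and 1.46. The log2 difference was -0.997 ± 0.28 (adjusted p = 0.0106, edgeR). Pcdhac2, not called, had a difference above 0, with 1.48 to 2.45 CPM in B6 and 2.38, 2.39 and 2.61 CPM in PWD (0.38 ± 0.19, adjusted p = 0.236). Pcdhgc4 (-0.42 ± 0.16, adjusted p = 0.0924), Pcdhac1 (-0.11 ± 0.2) and Pcdhgc5 (-0.11 ± 0.17) were not called. Pcdhga12, the highest region, had 8.73 to 14.7 CPM in B6 and 12.1 to 13.3 CPM in PWD.

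**Figure D4:**
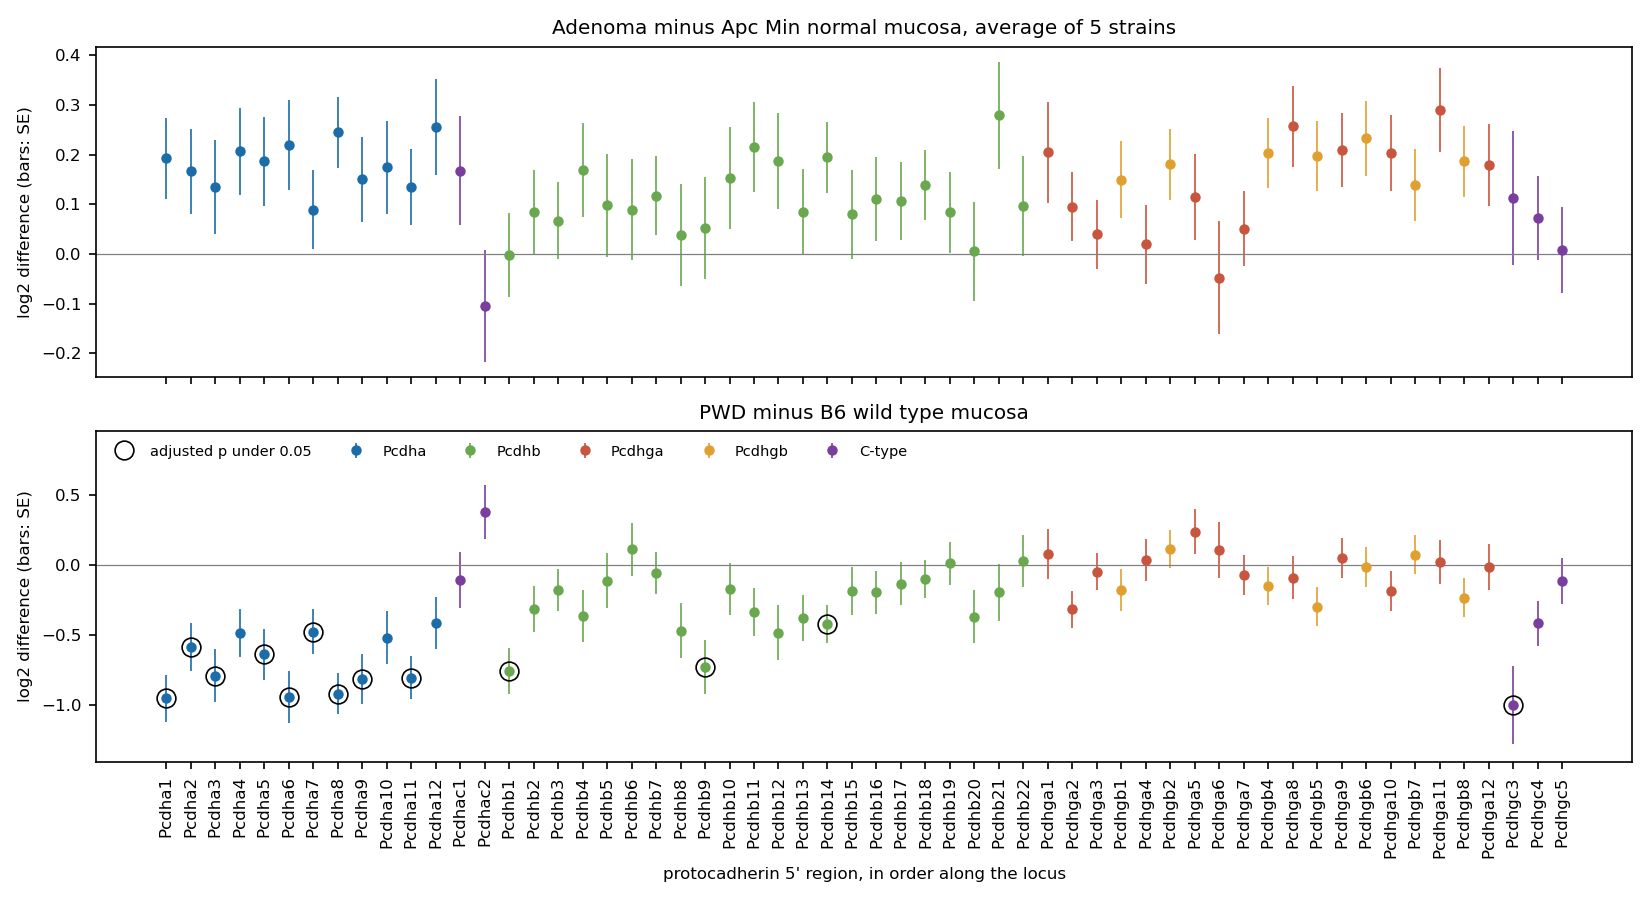
Log2 difference (points) with its standard error (bars) at the 58 protocadherin 5′ regions in order along the locus, for adenoma minus Apc Min normal mucosa averaged over 5 strains (top) and PWD minus B6 wild type mucosa (bottom); colours are the types, and rings mark an adjusted p under 0.05 by edgeR. The top panel has 55 of 58 points above 0 and no ring, and in the bottom panel 9 of the 13 rings are on Pcdha regions.

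The strain difference depended on the label numbers and on single libraries. The B6 libraries were numbered 4, 4, 10 and 16 and the PWD libraries 11, 11 and 16. With this number as a factor 2 of 58 members were called, Pcdha8 and Pcdhb1, against 7.11% of all regions, the median over the 12 Pcdha regions was -0.31, and the median over all 58 was 0.01. Without B6 10_1 there were 7 called (8.87% of all regions), without PWD 11_1 there were 8 (7.26%), and without B6 16_8 there were 19 (9.8%), among them all 12 Pcdha regions. In the pair numbered 16, PWD lay below B6 at 10 of 12 Pcdha regions (median log2 difference -0.27) and at 25 of all 58 members. The share of dense counts was 5.33% in PWD 16_9 and 4.24% in B6 16_8, so a shared number did not match the pair on that share. The dense windows of the Pcdha cluster held 56.55 CPM in that PWD library and 57.14 CPM in that B6 library, and 1061 and 1349 dense CPM. With the share of dense counts as a covariate, 18 of 58 members were called, 17 of them lower, against 18.6% of all regions in either direction.

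A ratio formed within each library does not depend on its scaling. The summed counts of the 12 Pcdha regions divided by those of the 19 variable Pcdhg regions were 0.45, 0.45 and 0.486 in PWD and 0.597, 0.716, 0.73 and 0.79 in B6 wild type mucosa. The PWD libraries were the lowest, also against all 34 libraries of B6, C5, C5F1 and C1_5F1, which ran from 0.528 to 0.803. The 9 B6xPWD libraries ran from 0.534 to 0.749. Against the 4 B6 libraries the difference was -0.246 (exact permutation p = 0.0571, the smallest this design allows). Against the 10 wild type libraries of B6, C5 and C5F1 it was -0.232 (exact permutation p = 0.00699, the smallest possible). Between adenomas and normal mucosa the ratio differed by 0.00637 (exact permutation p = 0.792). The libraries numbered 16 had the lowest ratio of their group in B6 wild type mucosa (0.597), C5 (0.528 to 0.59) and C5F1 (0.614 to 0.633), and the middle value in each B6xPWD group (0.609 to 0.637). The ratio and both sets of control libraries were chosen after the data were seen.

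The sum over all dense windows of the locus was 207.6 ± 11.1 CPM (SD, n = 3) in PWD and 265.3 ± 66.6 (n = 4) in B6, where library 16_8 stood at 169.3 and the other libraries at 272.1 to 316. The PWD library of the same number, 16_9, had 201.4 CPM, above B6 16_8. In dense CPM that pair had 3778 in PWD and 3998 in B6. The difference of -57.7 had an exact permutation p of 0.229 (adjusted p = 0.327), and no p under 0.0571 is possible with 3 against 4 libraries. In dense CPM the difference was -513 (exact permutation p = 0.0571, adjusted p = 0.0952). By cluster it was -476 for Pcdha, -92.4 for Pcdhb and 79.1 for Pcdhg.

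Of the dense windows tested in the locus, 51 of 269 (19%) were called lower in PWD and 2 (0.743%) higher. Over all dense windows 20.5% were lower and 5.25% higher, so the share of lower windows in the locus was near that of the genome. The clusters differed among themselves: 35 of 93 dense windows (37.6%) were called lower in Pcdha, 8 of 63 (12.7%) in Pcdhb and 4 of 101 (3.96%) in Pcdhg. Of the other windows 32 of 385 (8.31%) were lower and 26 (6.75%) higher, against 12.4% and 8.13% of all such windows. With the label number as a factor 39 windows of the locus were called in all, in place of 111, against 10.9% of all windows. Of the dense windows of the locus 6 (2.23%) were then called lower and 6 (2.23%) higher, against 9.34% and 8.82% of all dense windows. Their median log2 difference was 0.21, against 0.33 over all dense windows. Without the factor it was -0.29, against -0.08. The sign of the median at dense windows thus depended on that factor, in the locus and over all autosomes. In both fits the locus median lay below that of all dense windows.

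The dense window with the lowest p lay 1538 bp inside Pcdha3 (36947501 to 36947750). It had 0.386, 1.02, 1.36 and 1.36 CPM in B6 and 0.0862, 0.187 and 0.197 CPM in PWD, a log2 difference of -2.67 ± 0.43 (adjusted p = 1.58e-06, edgeR). The window at 37045751 to 37046000, in the interval between Pcdha12 and Pcdhac1, had 0.29 to 0.708 CPM in B6 and counts in only 1 of 3 PWD libraries (-4.11 ± 0.70). A window 905 bp inside Pcdhgb5 fell by 1.47 on the log2 scale. Windows inside Pcdha9 and just before Pcdha8 fell by 1.98 and 1.82, and a window inside Pcdha6 by 2.5. The 2 dense windows called higher lay in Pcdhga12 (1.04 ± 0.28, adjusted p = 0.00329, edgeR) and Pcdhga6 (0.84 ± 0.31, adjusted p = 0.0402, edgeR).

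Outside the dense windows, the change with the lowest p was a gain. The window at 37844501 to 37844750, past the end of the Pcdhg cluster, had 0, 0, 0.044 and 0.0885 CPM in B6 and 0.793, 0.819 and 1.02 CPM in PWD (4.44 ± 0.60, adjusted p = 1.72e-08, edgeR). Windows 8080 bp after the start of Pcdhgc5, 7546 bp after that of Pcdhga12 and upstream of Pcdhb5 were higher by 3.09, 3.39 and 1.66. Called lower were windows in Pcdhb9 (-3.13) and Pcdhb1 (-2.34), 5174 bp after the start of Pcdhb7 (-3.44) and 3948 bp after that of Pcdhac2 (-4.02). As stated above for all PWD comparisons, a difference in methylation cannot be told apart from one in sequence or mapping at these windows.

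B6xPWD and C5 wild type mucosa were compared with B6 in the same way. In B6xPWD 8 of 654 windows of the locus were called, 4 in each direction, against 1.79% of all windows, and 0 of 58 members, against 1.35% of all regions. At an unadjusted p under 0.05 there were 8 members (13.8%) by edgeR, near the 11.7% of all regions. In C5, whose PWD chromosome is not the one with this locus, 2 of 654 windows were called, against 0.881%, and 1 of 58 members, against 0.387%. That member was Pcdhb1 at -0.70 ± 0.17 (adjusted p = 0.033, edgeR). Of the members, 54 of 58 lay below 0 in C5, with a median log2 difference of -0.28 against 0.01 over all regions. An unadjusted edgeR p under 0.05 was found for 20 of them (34.5%), against 10.9% of all regions. With the share of dense counts as a covariate 2 of 58 members were called in B6xPWD, Pcdha8 lower and Pcdhb6 higher, against 4.15% of all regions, and 10 of 58 members were called lower in C5, against 3.11% of all regions in either direction. These comparisons share the B6 libraries with that of PWD. For the 12 Pcdha regions the median log2 difference from B6 was -0.71 in PWD, -0.39 in B6xPWD and -0.32 in C5, and all 12 lay below 0 in each. The C5 libraries were numbered 12 and 16, and only 16 occurs among the B6 libraries, so strain and number are nearly confounded and their parts cannot be told apart.

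The windows that separate PWD from B6 give a scale on which the B6xPWD libraries can be placed, with 0% at B6 and 100% at PWD. It used 24 higher and 73 lower windows of the locus that were called and differed at least 2-fold. The 6 B6xPWD libraries of normal and wild type mucosa lay at 48.3% to 56.1%. The adenomas lay at 39.5%, 41.8% and 51.2%, so that 2 of the 3 were below all 6. The means were 44.2% and 53.1%, a difference of -8.93 percentage points (exact permutation p = 0.0476). The rest of chromosome 18, which also carries Apc, gave 41% and 48% (exact permutation p = 0.0238, the smallest possible), and the autosomes other than 1, 5 and 18 gave 47% and 48.1% (exact permutation p = 0.0238). These p-values were not adjusted. On the same scale of the locus, the groups without PWD chromosome 18 gave means of 0.636% in B6 adenomas and 10% in B6 normal mucosa, and of 3.26% and 13.4% in C1_5F1. They gave 16.5% and 17.7% in C5, and 15.4% and 14.6% in C5F1. On this scale adenomas lay below normal mucosa in B6, C1_5F1 and C5, and above it in C5F1. C5 and C5F1 wild type mucosa lay at 22.5% and 13.9%. The B6 and PWD wild type libraries that set the ends also chose the windows, so these offsets cannot be read as PWD content. The B6 adenoma mean averaged -24% to -3.71% at the lower windows with 9.49% to 19.7% at the higher windows. Over the rest of chromosome 18 the adenoma and normal means were 4.45% and 5.1% in B6, and 8.6% and 9.06% in C5. They were 8.89% and 9.22% in C5F1, and 3.37% and 2.76% in C1_5F1. At 4-fold windows of the locus they were 2.65% and 8.81% in B6, and 10.5% and 8.57% in C5. There C5F1 had 5.36% and 9.92%, and C1_5F1 4.47% and -4.39%. None of these differences in groups without PWD chromosome 18 was tested. In B6xPWD the difference at 4-fold windows of the locus was -14.5 percentage points (exact permutation p = 0.119). Leaving out a library took the p at 2-fold windows above 0.05 in 8 of 9 cases, with differences from -12.5 to -6.62. Copy number was not measured.

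**Figure D5:**
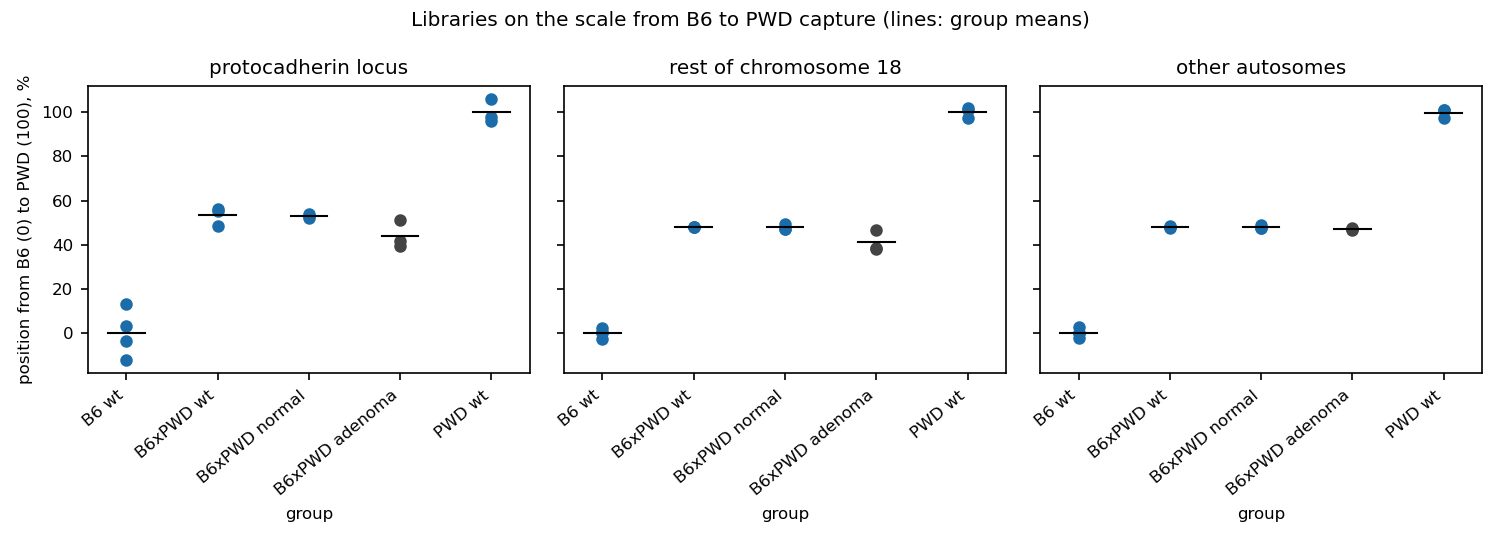
Position of each library (points) and group mean (lines) on the scale from B6 (0%) to PWD (100%) capture (vertical axis), over windows that differ at least 2-fold between PWD and B6 in the locus, the rest of chromosome 18 and the other autosomes. In the locus the B6xPWD adenomas lie at 39.5%, 41.8% and 51.2%, against 48.3% to 56.1% in the other B6xPWD libraries.

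Other genes of the family and its regulators were read at their own 5′ regions. Of 13 non-clustered protocadherins and related cadherins, 10 were measured, and 0 were called in either comparison. Of all regions 0.0534% were called in adenomas, and in PWD 4.59% were called higher and 5.88% lower. A count of 0 in so short a list thus does not set it apart. The 10 measured genes had a median level of 0.806 CPM in B6, against 5.86 CPM for the clustered members. In adenomas 8 of 10 lay above 0 (median log2 difference 0.09), led by Pcdh8 (0.73 ± 0.27, adjusted p = 0.809) and Pcdh17 (0.37 ± 0.17, adjusted p = 0.984, edgeR). In PWD 2 of 10 lay above 0. Of 21 genes for proteins that act on the clusters, 15 were measured, with 0 called in adenomas. In PWD 1 of the 15 was called, where 4.59% of all regions were called higher and 5.88% lower, so the list did not stand out. It was Uhrf1, which guides maintenance methylation (1.43 ± 0.35, adjusted p = 0.0034, edgeR). Ctcf, the factor that binds at the protocadherin promoters, had -0.86 ± 0.36 (adjusted p = 0.129, edgeR).

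The solute carrier gene Slc25a2 and Taf7, a subunit of the general transcription machinery, lie between the Pcdhb and Pcdhg clusters. No end of either gene was called in either comparison, where the shares over all regions were those given above. Among markers of cell types, 6 of 8 epithelial and 6 of 8 immune genes were measured at the 5′ end. So were 3 of 7 stromal and muscle and 4 of 9 enteric nerve and glia genes. Of these markers 0 were called in adenomas, against 0.0534% of all regions. By list, in that order, the median log2 differences in adenomas were -0.08, -0.04, -0.02 and 0.00. Capture at a marker's promoter does not give the share of a cell type, so the part of the cell makeup in the adenoma differences was not tested.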

How the data were processed

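The authors deposited 1 table of read counts per 250 bp window for 46 MeDIP libraries, with a CpG density score for each window. The submitters' processing notes name BWA and mm10. Neither labels nor headers give the scale of the score. They are also silent on duplicates and on reads with several matches. Libraries fell into 15 groups by the labels. C5F1 wild type sample 12_10 was not analysed here, nor were most input samples. The locus, members and gene lists were chosen with earlier results of these data known.

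Windows were tested with edgeR 4.0.16 (quasi-likelihood, TMM, filterByExpr with a minimum count of 10, 1 model of 15 groups) over all autosomes, with Benjamini-Hochberg adjustment and a threshold of 0.05. Gene starts came from RefSeq. Counts over 3000 bp regions of 20666 genes were tested alike, giving 22466 regions. Of these genes 16518 had a known strand, both ends being used for the rest. The protocadherins have no strand in the table, and their starts were taken at the lower coordinate, from the known orientation of the clusters. Pcdha4 and Pcdha7 share their regions with Gm37013 and Gm38667. CPM are TMM-scaled, whereas sums are CPM of unscaled counts.

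Sums were compared by exact permutation within strains, two-sided by doubling the smaller tail, a convention settled after first results because the design as written implies it. They were adjusted over the 10 tests of each denominator, a family also settled after first results were seen. In PWD against B6, that rule allows no p under 0.0571. The regions named were the 2 with the lowest p in each direction and cluster, the 5 C-type members, and the windows with the lowest p. For strains taken alone only the member with the lowest adjusted p is named. Alternatives were DESeq2 1.42.0 (size factors and test), other filters, another region, the label number as a factor and each library left out. The dense-share covariate and the ratio were added after the data were seen. The region test was tested on simulated data. It recovered 96% of 2-fold and 99% of 4-fold changes in adenomas, and 50% and 90% in PWD against B6. Changes under 2-fold were not simulated, and all member differences in adenomas, averaged over strains, were under 2-fold.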

Additional observations from a re-analysis of the deposited data

Results flagged for a closer look

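In 60 checks of single values within groups of 4 to 10 libraries, 1 library stood apart, where chance gives about 1 in 20 checks. The 5′ region of Pcdhb22 had 3.63 CPM in B6 wild type library 16_8 and 5.43 to 5.76 CPM in the other 3 libraries of that group.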

How the results depend on the processing

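With the label number as a factor, PWD against B6 gave 39 called windows and 2 called members, and the median over members turned to 0.0138, Pcdhac1 to 0.387 and Pcdhgc5 to 0.089. Regions from 1000 bp outside to 500 bp inside turned Pcdhac2 to 0.045, Pcdhb1 to 0.0627 and Pcdhgc5 to -0.0679 in adenomas, and Pcdhac2 to -0.67, Pcdhb6 to -0.29, Pcdhb22 to -0.567, Pcdhgb2 to -0.0606 and Pcdhgc5 to 0.143 in PWD. The dense-share covariate called 2 members in adenomas, and turned Pcdhb1 to 0.00204 and Pcdhgc5 to -0.0369 there and Pcdhgc5 to 0.00277 in PWD. The sum over other windows in adenomas was 9.78 CPM of the counts in such windows (exact permutation p = 0.0273), and the 4-fold windows gave a position difference of -14.5. The cause was not tested in any of these cases. Leaving out each library in turn gave -0.0388 to 0.0319 for Pcdhb1, -0.119 to 0.0262 for Pcdhga6 and -0.0519 to 0.0804 for Pcdhgc5 in adenomas, and -0.1 to 0.174 for Pcdhb22 in PWD. It gave 7 to 19 called members in PWD, dense sums in adenomas of 24.8 to 40.4, other sums of 6.06 to 10.7 in adenomas and -11.9 to 5.77 in PWD, and positions of -12.5 to -6.62. Without 1 B6xPWD adenoma no p under 0.05 is possible. Window fits without single libraries were not run for adenomas. No paired analysis was possible because no full sample number of the labels occurs in more than 1 MeDIP group. The first part of that number is shared between groups, and was used as a factor and as a stratum in place of pairs.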
